A study of Mus musculus with 42 samples.

Results

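The mRNA levels of 10 liver enzymes that oxidise alcohols and aldehydes or break down hydrogen peroxide were followed in 42 female APOE*3-Leiden mice. The genes were the alcohol dehydrogenases Adh1, Adh4 and Adh5, the aldehyde dehydrogenases Aldh1a1, Aldh1a7, Aldh1b1, Aldh2, Aldh3a2 and Aldh9a1, and catalase (Cat). They were chosen by name with earlier results of these data known, so counts of them called describe this set only. All 10 were found among the 54446 genes of the count table and passed the filter on low counts that left 15574 genes to test. APOE*3-Leiden mice carry a human transgene that gives them a human-like lipoprotein profile on a cholesterol-rich diet, and all 3 groups carried it. The chow group held 10 mice kept on a maintenance diet. The WTD group held 16 mice on a Western-type diet with 15% cocoa butter, 40.5% sucrose and 1% cholesterol, and 0.05% sodium cholate was added to it from week 22. The WTD+atorvastatin group held 16 mice on the same diet with atorvastatin mixed in, at 3.0 mg/kg/day and from week 5 at 4.5 mg/kg/day. Mice of the WTD-fed groups were 8 to 14 weeks old when the diet began, had a run-in of 3 weeks before treatment and were killed at 32 weeks, and chow-fed livers were labelled with the same endpoint. Each library came from the liver of 1 mouse. All chow-fed mice were labelled AZ# and all WTD-fed mice Gen#, and whatever this prefix marks cannot be told apart from the diet.

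Alcohol dehydrogenases turn alcohols into aldehydes with NAD+ as electron acceptor, and aldehyde dehydrogenases turn the aldehydes into acids. In the liver, ethanol is oxidised to acetaldehyde mainly by ADH1 in the cytosol and then to acetate mainly by ALDH2 in mitochondria, while catalase in peroxisomes can oxidise ethanol with hydrogen peroxide as a minor route. The same families handle retinol and retinal, formaldehyde, fatty aldehydes formed from lipids, and an aldehyde intermediate of carnitine synthesis, and most of these enzymes are abundant in hepatocytes.

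Gene counts added up to between 15661381 and 36224054 in a mouse (median 19421089.5), and the 10 genes had between 1174 and 109779 counts each in any library, so that counting error was small beside the spread between mice. In 8 libraries (3 chow, 4 WTD and 1 WTD+atorvastatin) over 20% of the weakly expressed genes had no count. The WTD-fed mouse labelled Gen#20 stood apart from the other 15 WTD-fed mice, with a TMM factor, the correction of library size for composition, of 0.9149 against 1.059 to 1.217. Levels are given as CPM, a gene's counts per 1e6 counts of its library, with library sizes corrected by these factors. Hepatocyte markers were checked against the liver label, and their summed level was between 60460 and 177100 CPM in every mouse. Of the 13 hepatocyte markers Trf had 9 counts in all mice together, and among the pericentral hepatocyte markers Oat was listed at 0.

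Several of the genes are neighbours in the genome (GRCm38, GENCODE vM21). Adh1 (chr3:138260991-138290698), Adh4 (chr3:138415466-138430892) and Adh5 (chr3:138443093-138455499) lie on the plus strand of chromosome 3, with 125.0 kb between Adh1 and Adh4 and 12.2 kb between Adh4 and Adh5. Aldh1a1 (chr19:20492715-20643465, plus strand) and Aldh1a7 (chr19:20692953-20727562, minus strand) face each other on chromosome 19 across 49.5 kb. Aldh1b1 lies at chr4:45799022-45804604 and Aldh9a1 at chr1:167349991-167368532, both on the plus strand. The minus strand holds Aldh2 (chr5:121566027-121593824), Aldh3a2 (chr11:61223417-61267464) and Cat (chr2:103453849-103485160). Adh1 shares 136 exon bases with the antisense gene Gm16559 and Aldh2 shares 130 with Gm42879, which is 6.1% and 2.5% of their exons, and the overlapping genes had 1584 and 1182 counts over all mice against 2287293 for Adh1 and 2505910 for Aldh2.

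Aldh1a1 and Aldh1a7 are close copies. Their coding sequences were identical at 91.7% of aligned positions, with an identical run of 100 bases, and 10.4% of all 50-base stretches of the Aldh1a7 coding sequence also occurred in Aldh1a1. How reads from such stretches were assigned was not tested, so the sum of both genes is given beside their single values. No other pair of the aldehyde dehydrogenases here was above 70.2% (Aldh1b1 and Aldh2), and the 3 alcohol dehydrogenases were between 62.8% and 66.1% identical to each other, in each case with no shared stretch of 50 bases.

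The likeness of Aldh1a1 and Aldh1a7 extends into the bases upstream of their starts, which are shown because these neighbours changed by different amounts (RefSeq windows, GRCm38.p6, 5′ to 3′ on the strand of the gene, without bases that GENCODE places in the transcript starting there). Capitals mark the longest run shared by both windows, 65 bases that end 22 bases before the window end in Aldh1a1 and 23 before it in Aldh1a7. The Aldh1a1 window is chr19:20601718-20601960 (plus strand), which is also within an intron of a longer Aldh1a1 transcript, and the Aldh1a7 window is chr19:20727563-20727806 (minus strand).
Aldh1a1: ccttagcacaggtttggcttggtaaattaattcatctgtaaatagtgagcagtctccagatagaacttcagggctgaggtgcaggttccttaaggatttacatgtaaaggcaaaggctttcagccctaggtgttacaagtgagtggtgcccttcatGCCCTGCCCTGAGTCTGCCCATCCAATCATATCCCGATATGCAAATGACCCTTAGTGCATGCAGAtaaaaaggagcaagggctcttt
Aldh1a7: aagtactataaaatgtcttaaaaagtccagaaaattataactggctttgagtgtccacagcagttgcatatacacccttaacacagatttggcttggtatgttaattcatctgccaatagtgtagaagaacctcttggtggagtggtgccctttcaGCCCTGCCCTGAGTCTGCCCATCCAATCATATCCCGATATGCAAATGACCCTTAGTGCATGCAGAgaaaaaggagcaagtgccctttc

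The shared run holds 1 CCAAT box and 1 octamer ATGCAAAT. In all, 5 motifs were searched on either strand in the 250 bases before the start, in 11 windows of 9 of the genes (Aldh2 had none). CCAAT was found in 6 of the 11 windows (1 each of Adh4, Aldh1a1, Aldh1a7, Aldh3a2, Aldh9a1 and Cat) and in 33.8% of 32817 windows of all genes. ATGCAAAT was found in Aldh1a1 and Aldh1a7 and in 1.6% of all windows. AGGTCA was found in Adh4 and Cat and in 14.0% of all windows, and TGTTTAC in 0 of the 11 windows and in 3.16% of all. The letters TCACNCCAC, a form of the sterol element to which the SREBP factors bind, were found in Aldh9a1 and in 1.05% of all windows. That window is chr1:167349741-167349990 (plus strand) and is printed, with the match in capitals, as the 1 window of these genes that holds these letters.
Aldh9a1: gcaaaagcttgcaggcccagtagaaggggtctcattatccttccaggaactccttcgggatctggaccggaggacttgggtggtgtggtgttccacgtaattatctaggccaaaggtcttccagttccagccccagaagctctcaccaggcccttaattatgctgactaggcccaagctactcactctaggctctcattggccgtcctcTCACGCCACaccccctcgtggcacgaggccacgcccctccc
A match of letters in these windows is a description and not a bound site.

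Levels were divided by the length of all annotated exons of a gene together, 2233 bases for Adh1, 2613 for Cat and 5126 for Aldh2. On chow, the level per kilobase of exon was highest for Adh1, at a mean of 1420 CPM per kb. Cat followed at 956, Aldh2 at 711 and Aldh1a1 at 304 CPM per kb. The ranges of these 4 genes over the 10 mice did not overlap with that of the next gene. The other genes followed with Aldh1a7 at 139, Aldh9a1 at 123, Adh4 at 101, Aldh3a2 at 93.6, Adh5 at 81.0 and Aldh1b1 at 57.8 CPM per kb, and in this part of the order the ranges of all neighbours overlapped. The same 4 genes led in the same order on WTD and with atorvastatin, but there the ranges of Adh1 and Cat, of Cat and Aldh2 and of Aldh1a1 and Aldh1a7 overlapped. This order depends on the exon lengths used. In CPM without division by length, the mean on chow was highest for Aldh2, at 3646 against 3177 for Adh1 and 2499 for Cat.

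**Figure D1:**
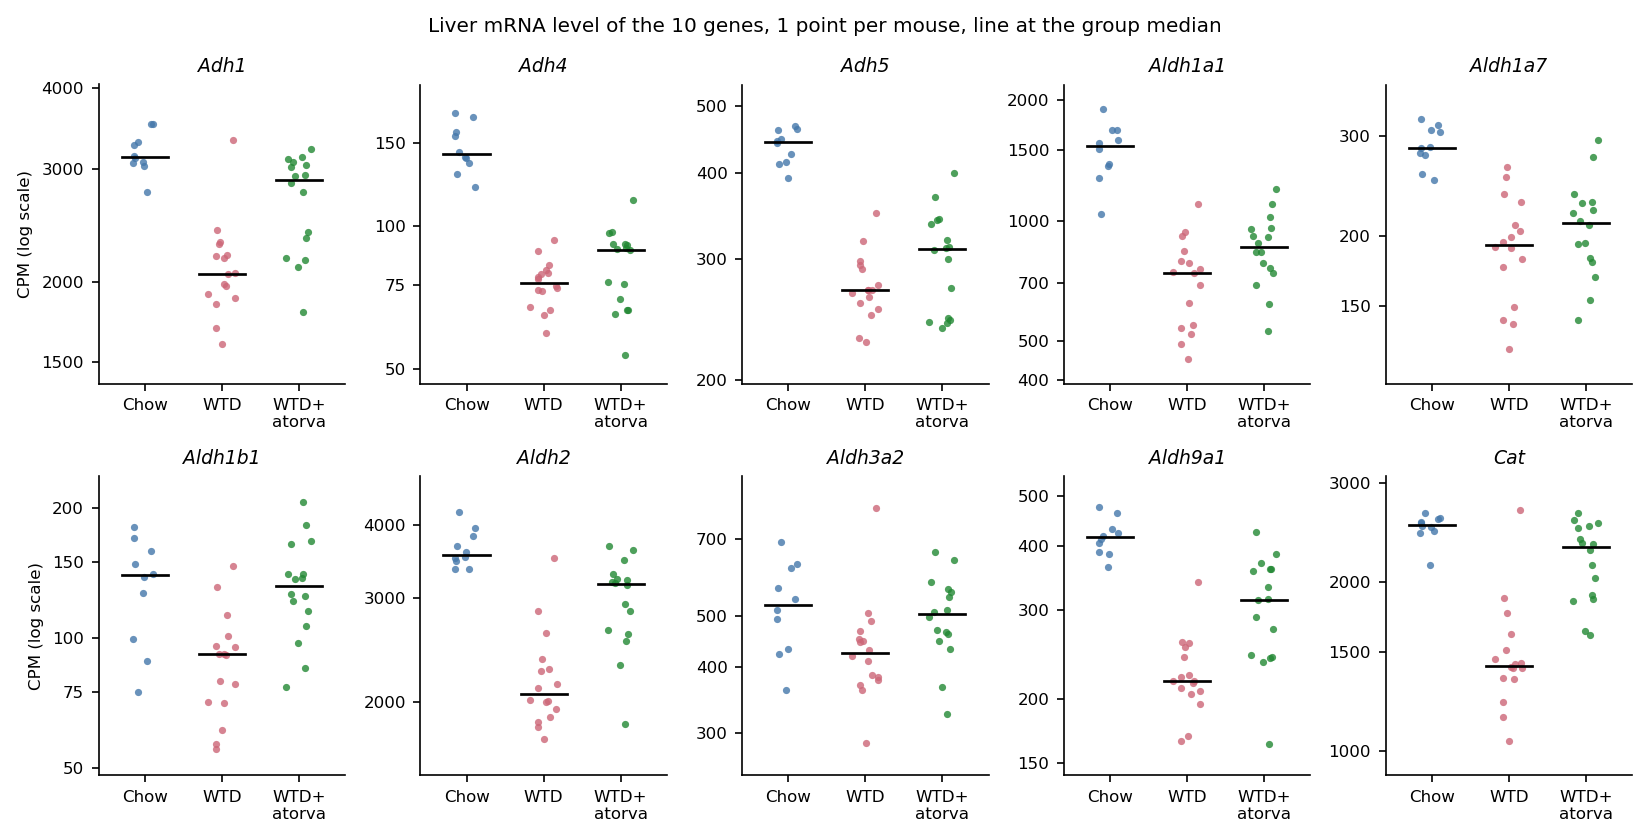
Level of each gene in CPM on a log axis, with 1 point per mouse (10 chow, 16 WTD, 16 WTD+atorvastatin) and a line at the group median. With the TMM scaling plotted, all 16 mice of the WTD group sit below all chow-fed mice for Adh4, Adh5 and Aldh9a1. Adh5 turned to 0.16 on the log2 scale with scaling to hepatocyte markers. The WTD-fed mouse Gen#20 is the highest WTD point for Adh1, Adh4, Adh5, Aldh1a1, Aldh1b1, Aldh2, Aldh3a2, Aldh9a1 and Cat. Scaling to hepatocyte markers turned 7 of the 10 differences between WTD and chow to the other sign.

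To see what the diet did, WTD-fed mice were compared with chow-fed mice. With TMM scaling 9 of the 10 genes were lower on WTD at an adjusted p under 0.01 and none was higher. Of all 15574 tested genes, 16.0% were called lower in this comparison with TMM scaling. Scaling to hepatocyte markers called 2 of the 10, both higher (Adh1 and Aldh3a2), against 66.4% of all tested genes called in either direction. The log2 fold changes had a median of -0.70 over the 10 genes and of 0.03 over all tested genes. Levels of the 10 genes added up to a median of 12450 CPM on chow (11820 to 14120) and of 7395 CPM on WTD (5753 to 12550).

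Among the alcohol dehydrogenases, Adh1, the main liver enzyme for ethanol, had between 2756 and 3524 CPM on chow (median 3124) and between 1598 and 3327 CPM on WTD (median 2058). All WTD-fed mice but Gen#20 lay below the lowest chow-fed mouse, and the log2 fold change was -0.58 (SE 0.09, Benjamini-Hochberg adjusted p = 2.5e-07 by the quasi-likelihood test of edgeR). Adh4, which acts on retinol and longer alcohols, had 121.2 to 173.3 CPM on chow (median 141.8) and 59.46 to 93.33 CPM on WTD (median 75.9), so the groups did not overlap, and its log2 fold change was -0.95 (SE 0.09, adjusted p = 1.3e-13 by edgeR). Adh5, the enzyme that removes formaldehyde bound to glutathione, had 393.9 to 468.0 CPM on chow (median 444.0) and 227.3 to 350.5 CPM on WTD (median 270.2), again without overlap, and its log2 fold change was -0.68 (SE 0.08, adjusted p = 1.1e-10 by edgeR).

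Aldh1a1, which makes retinoic acid from retinal in the cytosol, had the lowest fold change of the 10 genes. It had 1041 to 1907 CPM on chow (median 1540) and 450.1 to 1103 CPM on WTD (median 740.1). Only the mouse Gen#20 reached into the chow range, and the log2 fold change was -1.07 (SE 0.12, adjusted p = 1.2e-10 by edgeR). Its neighbour Aldh1a7, a rodent relative, had 250.8 to 321.0 CPM on chow (median 285.8) and 126.2 to 264.1 CPM on WTD (median 192.8), and 2 of the 16 WTD-fed mice reached into the chow range. Its log2 fold change was -0.58 (SE 0.10, adjusted p = 3.4e-06 by edgeR). With the counts of both genes summed the log2 fold change was -0.98 (adjusted p = 2.1e-10 by edgeR).

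The mitochondrial enzymes were lower as well with TMM scaling, while both had positive values that were not called with scaling to hepatocyte markers (0.10 for Aldh2 and 0.25 for Aldh1b1). Aldh2, the main enzyme for acetaldehyde, had 3359 to 4207 CPM on chow (median 3557) and 1726 to 3507 CPM on WTD (median 2062), with overlap only by Gen#20, and its log2 fold change was -0.72 (SE 0.09, adjusted p = 4.7e-09 by edgeR). Aldh1b1, a second mitochondrial acetaldehyde dehydrogenase, spread widely within each group, with 74.99 to 180.9 CPM on chow (median 139.6) and 55.34 to 146.8 CPM on WTD (median 91.6). The groups overlapped in 11 of the 16 WTD-fed mice, and the log2 fold change was -0.57 (SE 0.15, adjusted p = 0.0020 by edgeR).

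Aldh9a1, which oxidises the trimethylated aldehyde on the way to carnitine, had 364.3 to 476.5 CPM on chow (median 415.8) and 166.2 to 339.8 CPM on WTD (median 217.7). There was no overlap, and the log2 fold change was -0.89 (SE 0.10, adjusted p = 2.2e-10 by edgeR). Cat had 2146 to 2653 CPM on chow (median 2524) and 1042 to 1871 CPM in 15 WTD-fed mice (median of all 16, 1417), while Gen#20 had 2682 CPM, above every chow-fed mouse. Its log2 fold change was -0.73 (SE 0.10, adjusted p = 8.8e-09 by edgeR). Aldh3a2, the fatty aldehyde dehydrogenase of the endoplasmic reticulum, was the 1 gene not called, with 362.1 to 688.7 CPM on chow (median 525.4), 287.5 to 799.5 CPM on WTD (median 425.3) and a log2 fold change of -0.26 (adjusted p = 0.055 by edgeR). Without Gen#20 the value for Aldh3a2 was -0.34 (adjusted p = 0.0030 by edgeR), and 10 of 10 genes were called, against 34.7% of all tested genes called in either direction.

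Adh4, Adh5 and Aldh9a1 were thus the genes in which all mice of the WTD group lay below all chow-fed mice. With TMM scaling, 2.43% of all tested genes showed this pattern.

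Hepatocyte markers moved with these genes. All 12 tested hepatocyte markers were called lower on WTD, with a median log2 fold change of -0.86, and their summed level had a median of 139700 CPM on chow (127200 to 177100) and of 76360 CPM on WTD (60460 to 115700). Markers of other cells moved the other way. The summed macrophage markers were between 415.5 and 655.6 CPM on chow and between 2444 and 4457 CPM on WTD (8 of 11 called higher). Those of stellate cells and fibroblasts were between 406.4 and 687.7 CPM on chow and between 1121 and 2689 CPM on WTD (7 of 10 higher), and those of cholangiocytes between 77.25 and 156.1 CPM and between 182.0 and 845.0 CPM (6 of 6 higher). Endothelial markers had medians of 457.2 and 458.6 CPM (2 of 8 higher and 2 lower) and lymphocyte markers of 16.03 and 17.89 CPM. Of the 8 lymphocyte markers, 0 were called by edgeR, with 2 at an unadjusted p under 0.05, and 1 each by DESeq2 and limma-voom. In bulk liver RNA, fewer hepatocytes and less of an mRNA per hepatocyte cannot be told apart, and the part of these other cells in the results was not tested.

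When each library was scaled to its hepatocyte markers instead, the median of all tested genes in this comparison moved to 0.87, and 7 of the 10 genes changed sign. Adh1 was then higher on WTD by 0.24 on the log2 scale (adjusted p = 0.00085 by edgeR) and Aldh3a2 by 0.54 (adjusted p = 7.9e-06 by edgeR). Aldh1a1 (-0.25), Adh4 (-0.12) and Aldh9a1 (-0.07) kept a negative value, none of them called. Read as a share of the summed hepatocyte markers, the 10 genes together had a median of 9.42% on chow (6.86% to 11.1%). Aldh2, Adh1 and Cat had the highest CPM of the 10 genes and weigh most in their sum. The median share was 9.97% on WTD (8.68% to 11.5%) and 9.46% with atorvastatin (7.44% to 13.3%), so that all 3 groups overlapped on this measure. Whether the markers themselves changed per hepatocyte was not tested, so neither this scaling nor this share is a correction for hepatocyte number.

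**Figure D2:**
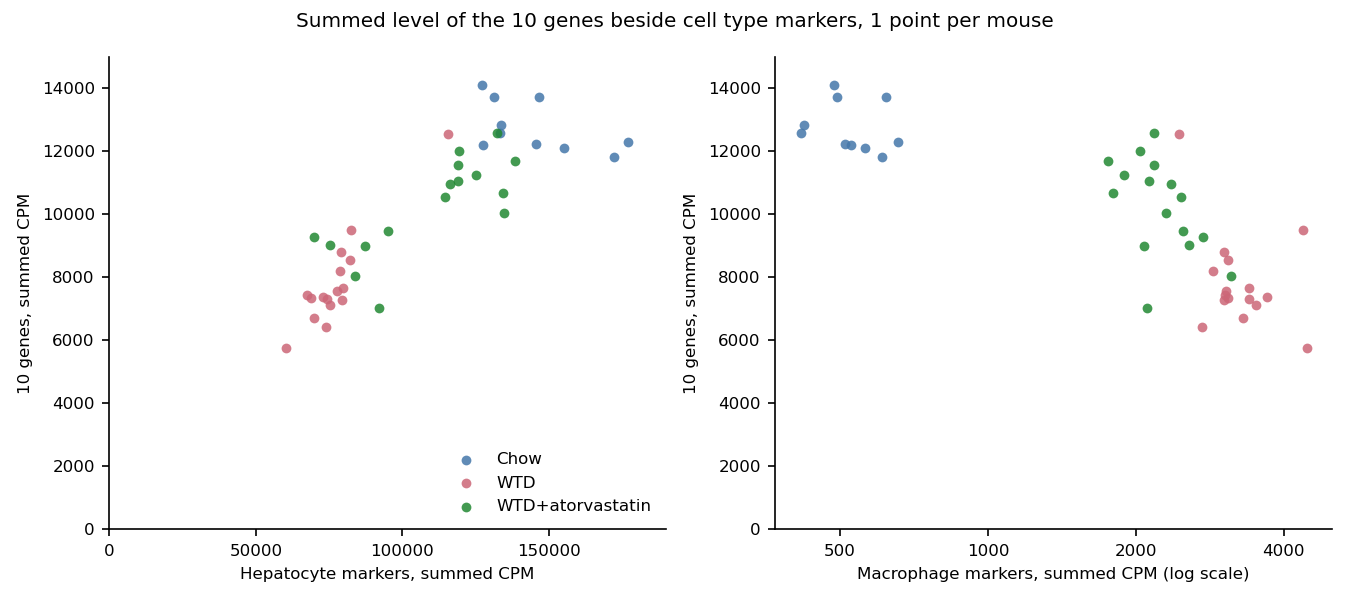
Summed CPM of the 10 genes in each mouse against the summed CPM of 13 hepatocyte markers (left) and of 11 macrophage markers (right, log axis), with 1 point per mouse coloured by group. On the left, the widest gap in the hepatocyte markers of treated mice parts 6 at 69710 to 95020 CPM from 10 at 114500 to 138500 CPM. The WTD-fed mouse Gen#20 lies at 115700 CPM away from the other mice of the WTD group.

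Treated mice were then compared with untreated mice on the same diet. With TMM scaling 5 of the 10 genes were called higher with atorvastatin and none lower, against 4.84% of all tested genes called higher. The median log2 fold change was 0.30 over the 10 genes and 0.002 over all tested genes. With scaling to hepatocyte markers only Cat was called (0.25, adjusted p = 0.0041 by edgeR), against 13.3% of all tested genes called in either direction. There 5 of the 10 values turned negative (Adh4, Adh5, Aldh1a1, Aldh1a7 and Aldh3a2), and the median of all tested genes was -0.29.

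Cat had 1606 to 2647 CPM with atorvastatin (median 2308) against the 1417 CPM of the median WTD-fed mouse, and 16 of 16 treated mice lay above that median. Its log2 fold change was 0.55 (SE 0.09, adjusted p = 2.7e-05 by edgeR). For Aldh2 the treated mice had 1834 to 3675 CPM (median 3173), 15 of 16 above the WTD median, and the log2 fold change was 0.44 (SE 0.08, adjusted p = 0.00020 by edgeR). Adh1 had 1794 to 3212 CPM with treatment (median 2880), 15 of 16 above the WTD median, and a log2 fold change of 0.34 (SE 0.08, adjusted p = 0.0018 by edgeR). The main enzymes of ethanol and acetaldehyde oxidation and catalase were therefore all among the genes called with TMM scaling.

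Aldh9a1 had 163.6 to 425.3 CPM with atorvastatin (median 313.7), of which 6 mice exceeded the highest WTD-fed mouse while 1 fell short of the lowest. Its log2 fold change was 0.45 (SE 0.09, adjusted p = 0.00047 by edgeR). Aldh1b1 had 77.11 to 206.2 CPM (median 131.7), 14 of 16 above the WTD median, and a log2 fold change of 0.58 (SE 0.14, adjusted p = 0.0027 by edgeR). Without the 8 libraries that missed many weakly expressed genes, 3 genes were called (Cat, Aldh2 and Aldh1b1), against 4.88% of all tested genes called in either direction. In that fit Adh1 (0.32, adjusted p = 0.022 by edgeR) and Aldh9a1 (0.38, adjusted p = 0.013 by edgeR) were not called.

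The other 5 genes were not called in this comparison. Their log2 fold changes were 0.13 for Adh4 (95% interval -0.03 to 0.28), 0.14 for Adh5 (0.004 to 0.27), 0.26 for Aldh1a1 (0.05 to 0.47), 0.11 for Aldh1a7 (-0.06 to 0.29) and 0.19 for Aldh3a2 (-0.01 to 0.39). Aldh1a1 had 529.6 to 1199 CPM with treatment (median 858.3) and Aldh1a7 had 142.2 to 295.2 CPM (median 210.5), both over nearly the whole WTD range. Limma-voom with sample quality weights called Adh4 and Aldh3a2 in addition, and it called 20.2% of all tested genes in either direction. In no gene did all treated mice lie above all mice of the WTD group. Gen#20 set the highest WTD level in each gene but Aldh1a7. The share of all tested genes in which all treated mice lay above was not computed.

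In the same comparison 8 of 12 hepatocyte markers were called higher, with a median log2 fold change of 0.34 and a summed median of 117700 CPM with atorvastatin. Summed macrophage markers were between 1753 and 3128 CPM with treatment (5 of 11 called lower and 1 higher), stellate cell and fibroblast markers between 1005 and 2470 CPM (5 of 10 lower and 1 higher) and cholangiocyte markers between 219.9 and 599.8 CPM (1 of 6 lower), and their part in the result was not tested. Treated mice were not uniform. In 6 of them Adh1 was between 1794 and 2387 CPM and in the other 10 between 2758 and 3212 CPM. The same 6 mice had the lower hepatocyte markers (69710 to 95020 against 114500 to 138500 CPM), Aldh2 levels of 1834 to 2852 against 2933 to 3675 CPM, Cat levels of 1606 to 2035 against 2139 to 2647 CPM and library scaling factors of 1.022 to 1.11 against 0.8902 to 0.9801. These sets were read from the data, and no label gives a batch or other difference between them.

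**Figure D3:**
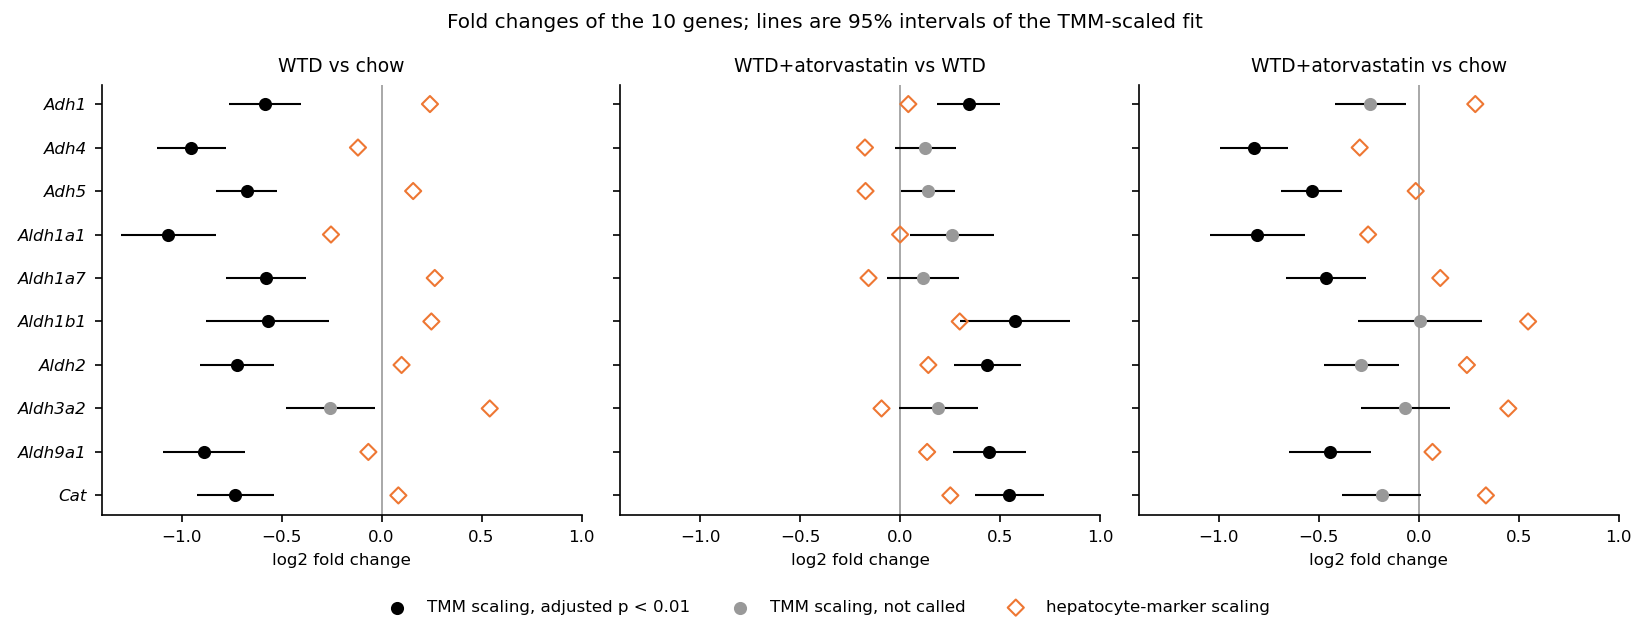
Log2 fold change of each gene in the 3 comparisons, as filled points with 95% intervals for TMM scaling (black where called at an adjusted p under 0.01, grey where not) and as open diamonds for scaling to hepatocyte markers. The diamonds lie to the right of the points in both comparisons with chow, where 7 and 6 of 10 values change sign, and to the left in the comparison of treated with untreated mice, where 5 change sign.

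Lastly, treated mice were compared with chow-fed mice, to see how far the levels lay from the reference diet. With TMM scaling 5 genes were called lower and none higher, against 10.7% of all tested genes called lower. With scaling to hepatocyte markers 1 was called lower (Adh4) and 5 higher (Adh1, Aldh1b1, Aldh2, Aldh3a2 and Cat). That scaling called 49.6% of all tested genes in either direction, with a median of all tested genes of 0.60. In Adh4 all 16 treated mice lay below all chow-fed mice, as in 1.5% of all tested genes, with 53.47 to 113.7 CPM against at least 121.2 CPM and a log2 fold change of -0.82 (SE 0.09, adjusted p = 2.9e-11 by edgeR). Its value with scaling to hepatocyte markers was -0.30 (adjusted p = 0.0059 by edgeR). Aldh1a1 had a log2 fold change of -0.81 (SE 0.12, adjusted p = 2.5e-07), Adh5 of -0.54 (SE 0.08, adjusted p = 9.3e-08), Aldh1a7 of -0.46 (SE 0.10, adjusted p = 0.00020) and Aldh9a1 of -0.44 (SE 0.10, adjusted p = 0.00047), all by edgeR with TMM scaling.

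The 5 genes that were not called against chow were Adh1 (-0.24, 95% interval -0.42 to -0.06, adjusted p = 0.030), Aldh2 (-0.29, -0.47 to -0.10, adjusted p = 0.013), Cat (-0.19, -0.38 to 0.01, adjusted p = 0.14), Aldh3a2 (-0.07, -0.29 to 0.16, adjusted p = 0.69) and Aldh1b1 (0.005, -0.31 to 0.32, adjusted p = 0.98). These intervals leave room for real differences. Aldh2 was called lower by DESeq2, with RLE normalization, in a fit of both groups alone and in the fit without Gen#20 (adjusted p = 0.0044 by edgeR), and higher by 0.24 with scaling to hepatocyte markers (adjusted p = 0.0025 by edgeR). Of 12 hepatocyte markers, 9 were called lower in this comparison. Called higher were 9 of 11 macrophage markers, 8 of 10 stellate cell and fibroblast markers and 5 of 6 cholangiocyte markers. Of all tested genes, 25.0% were called in either direction with TMM scaling. The part of these markers in the result was not tested. The 3 comparisons share their groups, so values of 1 gene in them are not independent of each other.

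Ratios of a pair of genes within a library do not depend on how the library is scaled. The 5 pairs were chosen after the data were seen and tested by permutation (100000 permutations, two-sided, adjusted over 15 tests). Adh1 relative to Adh4 had a mean log2 ratio of 4.44 ± 0.19 on chow (SD, n = 10), 4.80 ± 0.21 in 16 WTD-fed mice and 5.03 ± 0.26 in 16 treated mice (each ± SD). It was higher by 0.35 on WTD than on chow (adjusted permutation p = 0.00048), and higher again by 0.23 with atorvastatin than on WTD (adjusted permutation p = 0.014). In each WTD-fed group all 16 mice lay above the chow median, so Adh4 was lower relative to Adh1 in both.

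Aldh1a7 relative to Aldh1a1 had a mean log2 ratio of -2.37 ± 0.25 on chow (SD, n = 10), -1.88 ± 0.20 in 16 WTD-fed mice and -2.04 ± 0.14 in 16 treated mice (each ± SD). The ratio was higher by 0.49 on WTD than on chow (adjusted permutation p = 0.00020) and changed by -0.15 with atorvastatin (adjusted permutation p = 0.024).

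Cat relative to Adh1 had a mean log2 ratio of -0.35 ± 0.10 on chow (SD, n = 10), -0.51 ± 0.15 in 16 WTD-fed mice and -0.29 ± 0.08 in 16 treated mice (each ± SD). It differed by -0.16 between WTD and chow (adjusted permutation p = 0.0042) and by 0.22 between atorvastatin and WTD, where 16 of 16 treated mice lay above the WTD median (adjusted permutation p = 0.00020). Aldh2 relative to Adh1 followed the same course with -0.14 (adjusted permutation p = 0.0051) and 0.10 (adjusted permutation p = 0.011). For neither ratio did the difference between treated and chow-fed mice pass (adjusted permutation p = 0.16 for Cat and 0.17 for Aldh2). For Aldh1b1 relative to Aldh2 no comparison passed, with adjusted permutation p values of 0.28, 0.31 and 0.13.

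**Figure D4:**
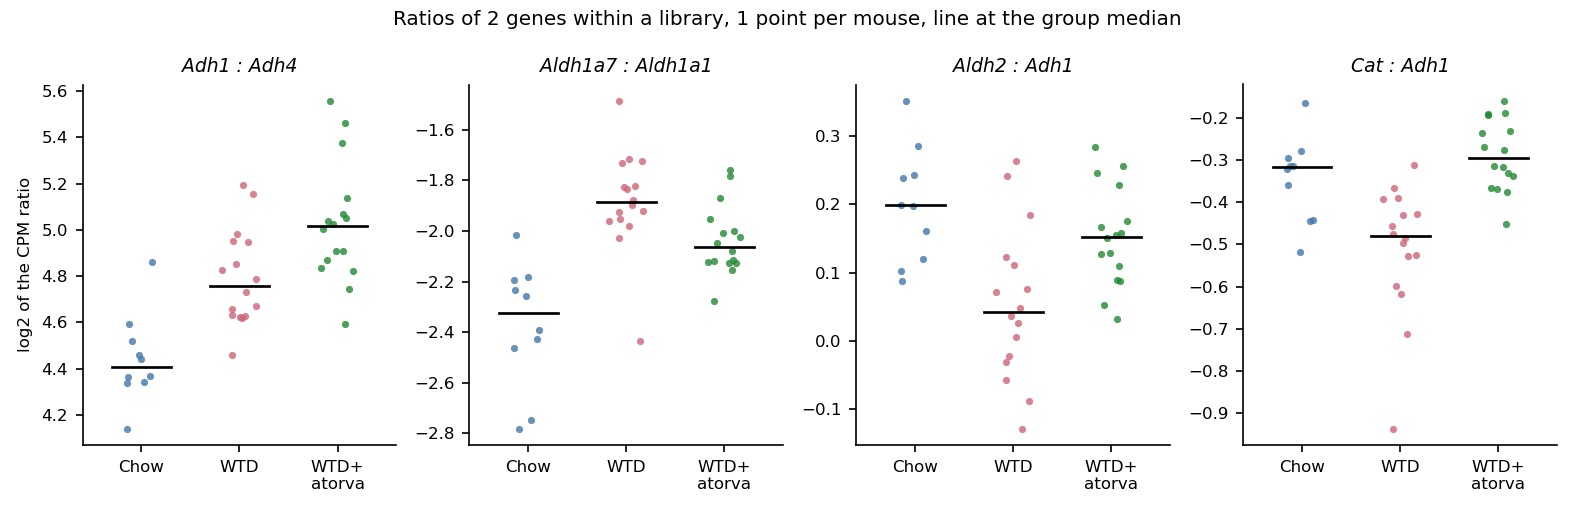
Log2 of the CPM ratio of 4 pairs of genes within each library, with 1 point per mouse and a line at the group median. The ratio of Adh1 to Adh4 steps up from chow to WTD to WTD+atorvastatin, while those of Aldh2 and Cat to Adh1 are lowest on WTD. Scaling of a library cancels out in these ratios.

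Mice of the same group also differed from each other. The coefficient of variation on chow was lowest for Cat (5.56%) and Adh5 (5.7%) and highest for Aldh1b1 (26.6%). On WTD it was lowest for Adh5 (11.4%) and Adh4 (11.5%), and with atorvastatin it was between 15.5% (Cat) and 26.1% (Aldh1b1). Over the 45 pairs of the 10 genes, Pearson r of log2 CPM had a median of 0.31 among the 10 chow-fed mice. There 2 pairs had an adjusted permutation p under 0.05 (135 tests over 3 groups), of which 1 also passed by Spearman's rho. Among the 16 WTD-fed mice with Gen#20 the median was 0.64, with 29 pairs, of which 16 also passed by rho. Groups of 10 and 16 mice differ in the r that can pass, so these counts cannot be compared, and the share of other gene pairs that pass was not computed. Without Gen#20 the median on WTD was 0.53, with r between -0.21 and 0.91.

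On chow the highest r was 0.75 for both Aldh3a2 with Cat and Aldh1a1 with Aldh3a2. For Aldh3a2 with Cat (Spearman rho 0.71, adjusted permutation p = 0.022 for r and 0.077 for rho) r was 0.30 without the 2 mice farthest from the median, so the relation rested on those mice. For Aldh1a1 with Aldh3a2, named after its values were seen (rho 0.85, adjusted permutation p = 0.030 and 0.016) r was 0.69 without such mice. The lowest was -0.37 for Aldh1b1 with Aldh3a2 (rho -0.20, adjusted permutation p = 0.45 and 0.70), and it was 0.32 without such mice. On WTD the highest was 0.93 for Aldh9a1 with Cat (rho 0.79, adjusted permutation p = 0.00017 and 0.0032), and it was 0.87 in the 15 mice without Gen#20 (rho 0.75). The lowest on WTD was 0.09 for Adh4 with Aldh1a7 (adjusted permutation p = 0.80).

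Treated mice were split at the widest gap in Adh1, a cut chosen after the data were seen. The pairs with the highest and the lowest r among treated mice are given within the 2 sides, as a description only. For Adh1 with Aldh2, r was 0.96 in the 6 mice below the gap in Adh1 (rho 0.94, r 0.62 without the 2 farthest mice) and 0.85 in the 10 mice above it (rho 0.73, r 0.77 without the 2 farthest mice). For Aldh1a1 with Aldh1b1, r was -0.61 in the 6 mice (rho -0.37, r -0.07 without the 2 farthest mice) and 0.39 in the 10 mice (rho 0.62, r 0.57 without the 2 farthest mice). Levels of all genes in a mouse share 1 library and its scaling. Summed levels of the 10 genes and of the hepatocyte markers had an r of 0.79 over the 15 WTD-fed mice without Gen#20 (rho 0.69, permutation p = 0.00044 and 0.0059, r 0.73 without the 2 farthest mice) and of -0.56 over the 10 chow-fed mice (rho -0.50, permutation p = 0.089 and 0.14, r -0.37 without them).

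After group means were taken out, the gene most like each of 9 of the 10 among 15573 others over 42 mice is given as a description, with r still holding the 2 sets of treated mice and Gen#20. Adh1 and Aldh2 had each other as the closest gene (r = 0.92), and so did Aldh1a1 and Aldh1a7 (r = 0.80). The closest gene was Gcdh for Cat (r = 0.92), Pdk1 for Aldh9a1 (r = 0.91), Serpinc1 for Adh5 (r = 0.87), the periportal glutaminase Gls2 for Aldh1b1 (r = 0.83) and the intestinal-type fatty acid binding protein Fabp2 for Adh4, at a lower r of 0.69.

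Genes that act next to the 10 were described by lists, with counts to be read beside the share of all tested genes called in either direction. For WTD against chow that share was 33.5% with TMM scaling and 66.4% with scaling to hepatocyte markers. For atorvastatin against WTD it was 7.1% and 13.3%. Of the 4 other alcohol dehydrogenases 2 could be tested. Adhfe1, a mitochondrial hydroxyacid dehydrogenase, was lower on WTD, at 93.41 CPM against 130.7 CPM on chow (log2 fold change -0.48, adjusted p = 4.8e-06 by edgeR). Adh7, the stomach enzyme, had 3.31 CPM on chow and 2.71 CPM on WTD (adjusted p = 0.57 by edgeR). With scaling to hepatocyte markers 1 of these 2 genes was called higher on WTD. Adh6a and Adh6b had 52 and 172 counts in all mice together.

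Of 12 tested further aldehyde dehydrogenases, 7 were lower and 3 higher on WTD with TMM scaling (1 lower and 4 higher with scaling to hepatocyte markers), and with atorvastatin 6 were higher and none lower (1 each with scaling to hepatocyte markers). Aldh1l1, which oxidises formyl-tetrahydrofolate, had a mean of 1861 CPM on chow, 757.3 on WTD and 1228 with atorvastatin, with log2 fold changes of -1.30 for WTD against chow and 0.70 for atorvastatin against WTD (adjusted p = 1.2e-10 and 0.00013 by edgeR). Aldh6a1 of valine breakdown (-0.75 and 0.51), Aldh7a1 of lysine breakdown (-0.76 and 0.39) and Aldh8a1 of the kynurenine route (-0.79 and 0.50) were called in both comparisons as well. Aldh3a1 and Aldh3b2 had 118 and 216 counts in all mice. Aldh4a1 was listed at 0, and how its reads were assigned was not tested.

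Acetate, the product of ethanol oxidation, is activated by acetyl-CoA synthetases. The cytosolic Acss2 had a mean of 487.2 CPM on chow, 145.1 on WTD and 440.8 with atorvastatin, with log2 fold changes of -1.75 (SE 0.30, adjusted p = 5.0e-06 by edgeR) and 1.60 (SE 0.27, adjusted p = 7.8e-05 by edgeR). Mitochondrial Acss3 had -1.4 and 0.63 (adjusted p = 3.2e-12 and 0.00024 by edgeR). Acss1 had 2.58, 4.93 and 2.92 CPM and was not called. The microsomal ethanol oxidase Cyp2e1 had 6441, 3254 and 4198 CPM, with log2 fold changes of -0.99 (adjusted p = 5.6e-05) and 0.37 (adjusted p = 0.18 by edgeR), so it was called for WTD and not for atorvastatin. With scaling to hepatocyte markers 2 of these 4 genes stayed lower and 1 was higher on WTD, and 1 was higher with atorvastatin.

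Of 15 genes of retinol metabolism, 7 were lower and none higher on WTD, and 4 were higher and none lower with atorvastatin with TMM scaling (1 lower and 7 higher, and 2 lower and 1 higher, with scaling to hepatocyte markers). Rdh11, a retinal reductase, had log2 fold changes of -1.98 and 1.10 (adjusted p = 7.9e-11 and 6.2e-05 by edgeR), Cyp26a1, which clears retinoic acid, of -1.26 and 1.08 (adjusted p = 6.1e-05 and 0.00086), and Rdh7 of -0.95 and 0.33 (adjusted p = 3.0e-14 and 0.0011). The retinol carrier Rbp4 had -0.98 (adjusted p = 2.1e-13) and 0.24 (adjusted p = 0.037, not called).

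The 12 aldehyde reductases and oxidases went both ways on WTD with TMM scaling, 4 lower and 4 higher (none lower and 8 higher with scaling to hepatocyte markers). Aox3, an aldehyde oxidase, had -0.72, Akr1c6 had -0.59 and Akr7a5 had -0.64, while aldose reductase Akr1b3 had 1.24 (adjusted p = 2.9e-11, 3.3e-11, 5.1e-07 and 4.4e-10 by edgeR). With atorvastatin 0 of the 12 were called by edgeR, with 5 at an unadjusted p under 0.05, 2 called by DESeq2 and 5 by limma-voom. Akr1a1, which reduces aldehydes back to alcohols, had 446.1, 434.1 and 399.4 CPM and was not called in any comparison.

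Among the genes next to Adh5 and Aldh9a1, Bbox1, the last enzyme of carnitine synthesis, had log2 fold changes of -0.48 and 0.38 (adjusted p = 0.00015 and 0.0033 by edgeR). Esd, the next enzyme after Adh5 in formaldehyde removal, had 273.4, 259.1 and 267.6 CPM (adjusted p = 0.38 and 0.72), and glutathione reductase Gsr had 0.33 and -0.07 (adjusted p = 0.023 and 0.76), neither of them called. With scaling to hepatocyte markers all 3 were higher on WTD and none was called with atorvastatin.

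Peroxisomal oxidases make the hydrogen peroxide that catalase removes. Of 9 tested, 5 were lower and 1 higher on WTD, and 2 were higher and none lower with atorvastatin with TMM scaling (1 lower and 5 higher, and 1 higher, with scaling to hepatocyte markers). Pipox had -1.04 and 0.53 (adjusted p = 2.3e-12 and 6.5e-05 by edgeR), Paox had -0.98 and 0.74 (adjusted p = 2.7e-06 and 0.00042), and Hao1 was called on WTD (-0.67, adjusted p = 5.1e-10) but not with atorvastatin (0.25, adjusted p = 0.013). Of 9 other genes that remove peroxide or superoxide, 5 were lower on WTD with TMM scaling (5 higher with scaling to hepatocyte markers), among them Sod1 (-1.03), Gpx1 (-0.72), Prdx5 (-0.63) and Prdx6 (-0.45). With atorvastatin 1 was called, Gpx4, which repairs lipid peroxides, with -0.51 (adjusted p = 6.2e-05 by edgeR), whereas scaling to hepatocyte markers called 5 of the 9 lower and limma-voom called 3 higher and 1 lower. Gpx1 had 2357, 1435 and 1299 CPM, whereas Cat had means of 2499, 1504 and 2196 CPM.

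**Figure D5:**
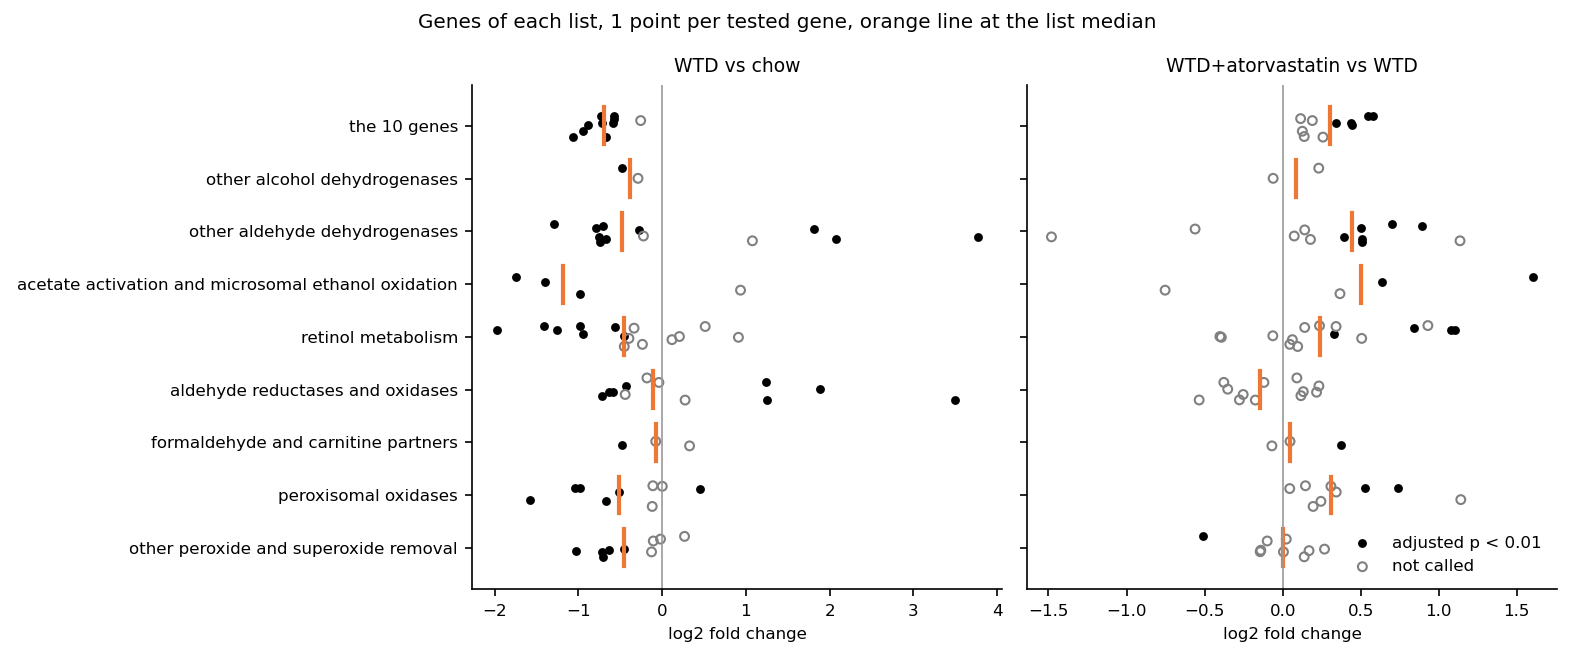
Log2 fold change (TMM scaling) of the 10 genes and of each tested gene of the other lists, for WTD against chow (left) and WTD+atorvastatin against WTD (right), filled where called at an adjusted p under 0.01, with an orange line at each list's median. Medians of the 10 genes are -0.70 and 0.30, and those of the aldehyde reductases and oxidases are -0.11 and -0.15. With scaling to hepatocyte markers the medians of the 10 genes were 0.13 and 0.02.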

How the data were processed

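RNA of snap-frozen liver was sequenced from 42 mice, 1 strand-specific poly(A) library per mouse. The deposited values are raw counts per gene, which the authors made by trimming with Trimmomatic, aligning to GRCm38 with STAR (2.5 in the submitters' processing notes) and counting with HTSeq 0.6.1p1. The strand setting of the counting is not given in the sources used here. Reads that HTSeq left out as ambiguous were between 5.43% and 6.57%, those without a gene between 2.0% and 2.78% and those with several placements between 4.07% and 5.36%, and these lines were kept out of library sizes. The 42 single tables were identical to the merged table, and no 2 libraries agreed within sampling noise (lowest chi-square per degree of freedom 11.28). Groups came from the treatment label. No label gives a batch.

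From the counts, CPM with TMM-scaled library sizes was computed (prior count 2 on the log2 scale). Weakly expressed genes were removed by filterByExpr, at a minimum count of 10 and a minimum total of 15, and 15574 of 54446 were tested with edgeR 4.0.16 in R 4.3.3, with its robust quasi-likelihood test and 1 fit of all 3 groups. A gene was called at a Benjamini-Hochberg adjusted p under 0.01 over all tested genes. Alternatives were DESeq2 1.42.0, limma-voom (limma 3.58.1) with sample quality weights, RLE normalization, scaling without the 20 most abundant genes, scaling to the hepatocyte markers with a count in every mouse, testing without a filter, a stricter filter of 10 or more counts in each mouse, only the 2 groups compared, leaving out the 8 thin libraries or the mouse Gen#20, an adjusted p under 0.05, a further limit of 1 on the absolute log2 fold change, and summing Aldh1a1 and Aldh1a7. A library was thin where over 20% of genes with 1 to 2 CPM had no count. Correlations and ratios were tested by permutation (100000 permutations, two-sided), correlations with numpy 2.4.6 and ratios with scipy 1.17.1. For ratios the smallest p that this can give is 2e-05. The ratios, the sets of treated mice and the relation to hepatocyte markers were chosen after the data were seen, and so were the pairs of genes without Gen#20. Positions are from GENCODE vM21, to which 54409 gene IDs were matched, while the study names vM19. Sequences are RefSeq entries of GRCm38.p6, with 11 promoter entries for 9 of the 10 genes.

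The 10 genes and all lists were chosen with earlier results of these data known. All 10 genes are given in every comparison. Of lists with up to 5 genes every gene could be named, of longer ones the 3 genes with the smallest p in WTD against chow and in atorvastatin against WTD, and of pairs the one with the highest and the lowest r in each group. Aldh1a1 with Aldh3a2 was named after its values were seen. The values of 1 gene that these rules name are not reported here.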

Additional observations from a re-analysis of the deposited data

Results flagged for a closer look

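Among the 10 chow-fed mice, the Cat level of the lowest mouse (AZ#6, 2146 CPM) lay apart from the next (2447 CPM, highest 2653 CPM). Its gap was 0.593 of the whole range, above Dixon's limit for 10 values at the 95% level. The same library missed 28.1% of the weakly expressed genes. The summed lymphocyte markers of the chow-fed mice also had 1 mouse apart, at 67.09 CPM with the next at 20.85 CPM, a gap of 0.693 of the range. The lowest mouse had 0.3194 CPM. These were the flags among 18 groups of values looked at, and chance flags about 1 in 20.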

How the results depend on the processing

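With scaling to hepatocyte markers, genes called went from 9 to 2 for WTD against chow and from 5 to 1 for atorvastatin against WTD. The share of all tested genes called went from 33.5% to 66.4% and from 7.1% to 13.3%. Signs turned there for Adh1 (0.24), Adh5 (0.16), Aldh1a7 (0.27), Aldh1b1 (0.25), Aldh2 (0.10), Aldh3a2 (0.54) and Cat (0.084) in WTD against chow, for Adh4 (-0.18), Adh5 (-0.17), Aldh1a1 (-0.00017), Aldh1a7 (-0.16) and Aldh3a2 (-0.093) in atorvastatin against WTD, and for Adh1 (0.28), Aldh1a7 (0.11), Aldh2 (0.24), Aldh3a2 (0.45), Aldh9a1 (0.069) and Cat (0.34) in atorvastatin against chow. Aldh1b1, at 0.005 in the last comparison, was -0.092 with limma-voom, -0.017 with only the 2 groups and -0.042 without the thin libraries. Without the thin libraries 3 genes were called for atorvastatin against WTD, beside 4.88% of all tested genes, with 8 fewer mice. A limit of 1 on the log2 fold change left 1 of the 10 genes (Aldh1a1) for WTD against chow and 0 for both other comparisons by edgeR, where 7 genes each had an unadjusted p under 0.05 and DESeq2 and limma-voom called 5 and 7 (against WTD) and 6 and 5 (against chow) without that limit. Over the 8 lists of other enzymes, genes called for WTD against chow went from 41 to 16 with this limit. They went from 16 to 3 for atorvastatin against WTD and from 26 to 5 for atorvastatin against chow. The share of all tested genes called fell too, from 33.5% to 13.8%, from 7.1% to 0.642% and from 25.0% to 8.27%. For atorvastatin against WTD, limma-voom called 36 list genes, beside 20.2% of all tested genes. An adjusted p under 0.05 called 25 there, beside 13.0% of all tested genes. Against chow, DESeq2 and limma-voom called 24.3% and 31.9% of all tested genes. The cause of these shifts was not tested beyond the settings themselves. Scaling without the 20 most abundant genes, testing without a filter, a stricter filter of 10 or more counts in each mouse and summing Aldh1a1 and Aldh1a7 changed no call or sign of the 10 genes in any comparison. No paired analysis was possible because each mouse is a separate animal. The groups on WTD share no mouse number, and the numbers that chow-fed mice (AZ#) share with WTD-fed mice (Gen#) have another prefix and name other animals.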
